A study of Capsicum chinense with 22 samples.

Results

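The genes examined here encode the nuclear parts of the photosynthetic machinery in the fruit pericarp of *Capsicum chinense*. They are the genes of the deposited expression table whose name contains chlorophyll a-b binding, photosystem, ribulose bisphosphate carboxylase, oxygen-evolving, plastocyanin, ferredoxin--NADP or cytochrome b6-f. The rule took 67 of the 16922 genes. They were divided into 26 light-harvesting antenna genes, 27 core genes (13 of photosystem I, 8 of photosystem II and 6 of the oxygen-evolving complex), 4 electron carriers, 8 carbon fixation genes (4 Rubisco small chains and 4 Rubisco activases) and 2 assembly factors. The division followed words in the names, so photosystem II here includes the 22 kDa protein, Psb28 and the D1 precursor processing protein PSB27-H2. Pericarp of immature fruit at 20 and of ripe fruit at 60 days post anthesis (DAA, days after anthesis) came from 4 accessions grown in a greenhouse. Per the study, Hab and Biq ripen red and A101 and A18 ripen yellow, while Hab and A101 are pungent and Biq and A18 are not. RNA sequencing gave 22 libraries in 8 groups of 3, apart from immature A18 fruit and ripe Hab fruit with 2 libraries each. A library is a pool of fruits from a single plant, so a colour or pungency contrast sets 2 accessions against 2 and its error reflects plants within accessions, not accessions.

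Green fruit photosynthesizes in its pericarp. Antenna proteins bind chlorophyll and pass light energy to photosystem II, which splits water with the help of the oxygen-evolving proteins, and to photosystem I. Electrons move between the photosystems through the cytochrome b6-f complex and plastocyanin and reach NADP through ferredoxin--NADP reductase, and the resulting energy drives carbon fixation by Rubisco, whose small chain is nuclear-encoded and which activase keeps active. During ripening, chloroplasts are converted to chromoplasts and the thylakoid complexes are taken apart. Plastid-encoded subunits, such as the Rubisco large chain, were not analysed here.

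Values are the authors' variance-stabilized counts, close to a log2 scale and centred for each gene over the libraries, so that a value of 0 is a gene's own average. Levels can be compared between libraries for a gene but not between genes, and since the table holds no counts, the depth behind a value is not known here. A difference passed when limma's adjusted p was under 0.05 and its size was at least 1. All 22 libraries lay nearest to a library of their own group. Biq at 60 DAA library b stood lowest of its group for 56 of the 67 genes and library c highest for 54, so results at this point are also given without library b where it moved them. Capsanthin/capsorubin synthase (LOC107875664), a ripening marker, ranged from −6.741 to −4.63 at 20 DAA and from 4.904 to 7.102 at 60 DAA. Reads were matched to a *C. annuum* reference. With names cut at the first comma and "-like" dropped, 36 of the 67 genes share their name with another member. Where such copies are near-identical, their reads may have been split between them. Less RNA per cell and fewer green cells cannot be told apart in whole pericarp.

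Most of the photosynthetic genes were lower in ripe than in immature fruit, and the antenna genes showed the greatest differences in the yellow-fruited accessions. Of the 67 genes, A101 had 52 that fell by 60 DAA, A18 had 49, Hab had 45 and Biq had 32. Over all 16922 genes, the share that fell was 19.7%, 20.6%, 26% and 23.3%, respectively. A101 and A18 had 1 gene each that rose, Hab had 2 and Biq had 6, where the shares over all genes were 10.6%, 11.4%, 18.7% and 15.5%. Without Biq library b at 60 DAA, 34 genes passed in Biq in either direction, against 38 with it. The median difference over the 67 genes was −2.574 in A101, −1.898 in A18, −1.551 in Hab and −0.969 in Biq, while the median over all genes lay between −0.105 and −0.046. In all 4 accessions together, 24 genes fell (13.5% of all genes did so): 11 of the antenna, 8 of the core, 4 of carbon fixation and plastocyanin. That number was 17 after quantile normalization, 21 without Biq library b at 60 DAA, 28 without Biq library c at 60 DAA, and 22 to 25 under the other library omissions, array weights and the subtraction of library medians. In no accession did 5 genes pass (43.9% of all genes did not).

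**Figure D1:**
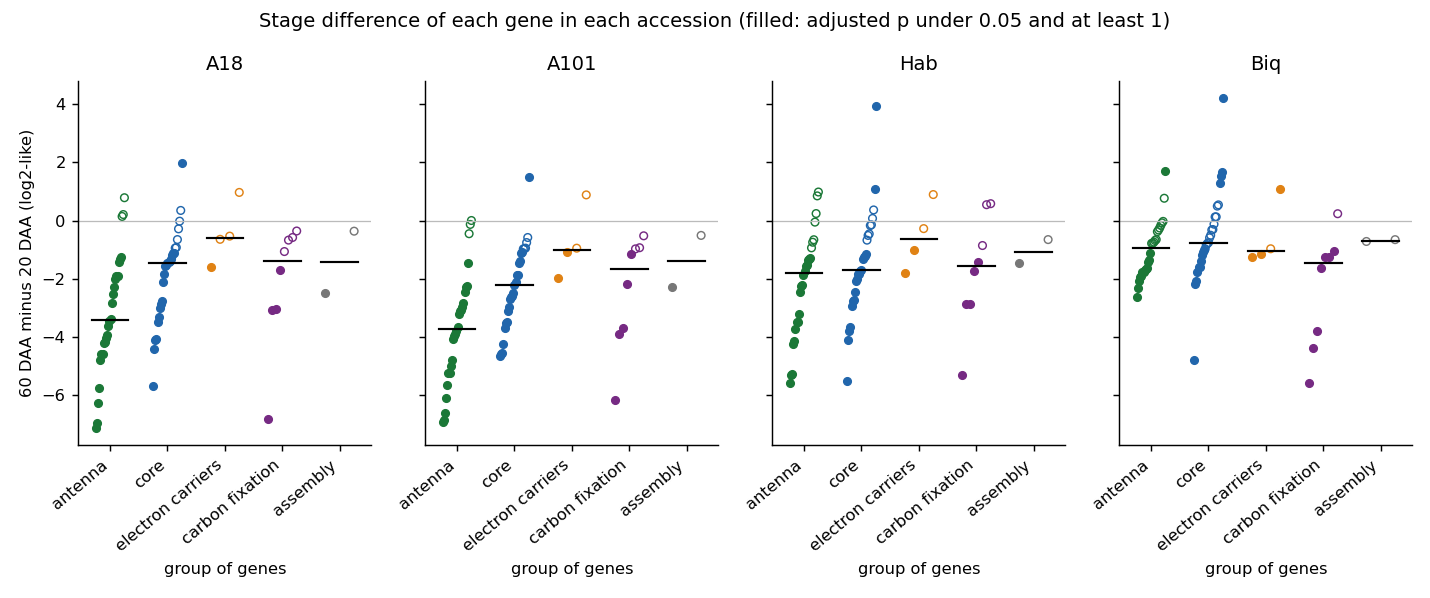
Difference between 60 and 20 DAA of every gene (log2-like units, y axis) in each accession, by group of genes (x axis). Each point is a gene, filled where it passed, and the line is the median of the group. Antenna medians sat at −3.405 in A18 and −3.71 in A101, below −1.803 in Hab and −0.9485 in Biq.

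Of the 26 antenna genes, 23 fell in A101 and A18 alike, 19 in Hab and 13 in Biq. In A101 and A18 the antenna genes that fell furthest were chlorophyll a-b binding (CAB) proteins 1B-like and 21-like, which are major antenna proteins of photosystem II. In Hab the furthest was LOC107868436 (−5.59) and in Biq LOC107839061 (−2.63). CAB 1B-like LOC107855776 stood at 4.75, 4.45 and 4.50 in the A101 libraries and at 4.585 and 4.596 in A18 at 20 DAA. In Hab it stood at −0.38, 0.13 and 0.34, and in Biq at −0.66, −0.67 and −0.72. At 60 DAA every library was between −2.29 and −1.49. The yellow accessions were thus far above the red ones at 20 DAA without overlap, and the 4 accessions lay together at 60 DAA. In ripe fruit 3 libraries (A101 c, Hab b and Biq b) share the lowest value of this gene, −2.285. That limit may set how close the ripe values lie and the size of its falls. Its stage difference was −6.61 ± 0.19 (SE) for A101, −6.27 ± 0.21 for A18, −2.23 ± 0.21 for Hab and −1.11 ± 0.19 for Biq, and the highest of the 4 limma adjusted p values was 2.5e-05. Without Biq library b at 60 DAA, its difference in Biq was −0.868 and no longer passed. CAB 21-like LOC107855780 and CAB 1B-like LOC107855779 had a similar course, with differences of −6.90 and −6.83 for A101 and of −6.94 and −7.13 for A18. CAB 1B-like LOC107855767 differed from them in that Hab also fell far, by 5.29 ± 0.42, while the difference in Biq was −0.78 ± 0.37 with a limma adjusted p of 0.061.

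Several antenna genes did not follow the main course. CAB 8 LOC107845349, an antenna protein of photosystem I in tomato, was the only antenna gene of the 26 that rose in an accession. In Biq it went from −1.70, −1.77 and −1.83 at 20 DAA to 0.08, −0.44 and 0.14 at 60 DAA, a rise of 1.69 ± 0.18 (limma adjusted p = 6.3e-08). In A18 it was at 0.80 and 0.82 and then at 0.96, 0.85 and 1.23, ranges that do not overlap but whose difference did not pass (0.21 ± 0.20). CAB of LHCII type 1 LOC107866744, chosen for mention after its values were seen, fell in Hab alone (−1.30 ± 0.17), with −0.13 ± 0.15 in A101, −0.08 ± 0.15 in Biq and 0.78 ± 0.17 in A18. CAB 13 LOC107878708, also chosen so, fell far in A101 (−5.24 ± 0.16) and A18 (−4.79 ± 0.18), less in Biq (−1.44 ± 0.16), and differed by −0.05 ± 0.18 in Hab (limma adjusted p = 0.79). In Hab it stood at −0.06, −0.09 and 0.48 in immature and 0.14 and −0.02 in ripe fruit, so that the ranges overlapped.

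Of the 27 core genes, A101 had 21 that fell, A18 had 20, Hab had 18 and Biq had 10, and their median differences were −2.202, −1.448, −1.696 and −0.758. Within photosystem II, the 22 kDa protein LOC107872990 (PsbS), which triggers the dissipation of excess light energy, fell further in the red accessions. It stood at 1.71, 1.96 and 1.61 in Hab, 1.38, 1.29 and 1.32 in Biq, 2.33, 2.66 and 2.29 in A101 and 2.22 and 2.46 in A18 at 20 DAA. At 60 DAA it was at −3.78 and −3.74 in Hab and −3.41, −3.94 and −3.02 in Biq, below −0.45, 0.35 and −0.33 in A101 and −0.71, −1.65 and −0.54 in A18. Red and yellow libraries did not overlap at either stage, and the gap between them was the wider in ripe fruit. The stage difference was −5.52 ± 0.29 for Hab and −4.79 ± 0.26 for Biq, and −2.57 ± 0.26 for A101 and −3.30 ± 0.29 for A18. PsbY LOC107844032, a small subunit of the complex, fell in all 4 accessions, with −3.67 ± 0.19 for A101, −2.75 ± 0.22 for A18, −2.46 ± 0.22 for Hab and −1.39 ± 0.19 for Biq. The subunit W-like genes LOC107843200 and LOC107874570 differed in Biq, where the difference was 0.12 ± 0.26 for the first and −1.004 ± 0.11 for the second. For the second gene, the 5 libraries of Hab and Biq at 60 DAA share its lowest value, which sets the size of its fall there, and in Biq the call was lost without library a (−0.994) or c (−0.955) at 20 DAA.

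Oxygen-evolving enhancer genes shield and stabilize the manganese cluster that splits water. Of the 6, Hab, A101 and A18 each had 5 that fell and Biq had 2. Enhancer protein 3-like LOC107856825 fell the furthest, with −5.67 ± 0.21 for A18, −4.24 ± 0.19 for A101, −3.65 ± 0.21 for Hab and −1.60 ± 0.19 for Biq. Enhancer protein 1 LOC107858690 fell in A101 (−1.07 ± 0.22) and differed by −0.15 ± 0.24 in Hab, −0.51 ± 0.22 in Biq and −0.29 ± 0.24 in A18. The call in A101 was lost without A101 library a at 60 DAA (−0.976). Its namesake LOC107860359 fell in A101 (−2.20 ± 0.25), A18 (−1.33 ± 0.27) and Hab (−1.32 ± 0.27) and differed by −0.76 ± 0.25 in Biq. Enhancer protein 2 LOC107856476 and enhancer protein 3-2 LOC107859535 fell in those 3 accessions too, and in Biq they differed by −0.79 ± 0.23 and 0.54 ± 0.26.

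Photosystem I held 4 of the 6 genes that rose in Biq. PsaK LOC107848242, a small membrane subunit at the edge of photosystem I, was the only member to rise in all 4 accessions (6.7% of all genes did so). At 20 DAA the Biq libraries stood at −3.21, −3.26 and −3.48, the Hab libraries at −1.98, −1.99 and −1.61, the A101 libraries at −0.33, −0.14 and −0.40 and the A18 libraries at −0.29 and 0.27. At 60 DAA it stood at 0.64, 1.02 and 1.06 in Biq, 2.12 and 2.04 in Hab, 0.96, 1.39 and 1.30 in A101 and 1.83, 1.93 and 2.12 in A18. Every ripe library was above every immature one. The rise was 4.22 ± 0.16 for Biq, 3.94 ± 0.18 for Hab, 1.97 ± 0.18 for A18 and 1.51 ± 0.16 for A101, and the highest of the 4 limma adjusted p values was 6.7e-08. Subunit IV B LOC107866881, a stromal subunit of the PsaE type, rose in Biq (1.66 ± 0.18) and Hab (1.08 ± 0.20) and differed by −0.58 ± 0.18 in A101 and −0.02 ± 0.20 in A18. The rise in Hab did not pass without Hab library b at 20 DAA (0.921) or library a at 60 DAA (0.963).

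A pair of photosystem I genes moved in opposite directions in different accessions, as 0.479% of all genes did. Subunit III-like LOC107858988, of the PsaF type that docks plastocyanin, stood in Biq at −1.36, −1.27 and −1.58 at 20 DAA and at 0.15, −0.09 and 0.33 at 60 DAA, a rise of 1.54 ± 0.14 (limma adjusted p = 4.6e-09). In A101 it went from 1.33, 1.15 and 1.37 to −0.60, −0.49 and −0.61, a difference of −1.85 ± 0.14, and its difference in A18 was −1.11 ± 0.15. The call in A18 was lost without library a at 20 DAA (−0.997). Subunit IV A LOC107875316 rose in Biq (1.28 ± 0.18) and fell in A101 (−1.40 ± 0.18), with 0.07 ± 0.20 in Hab and −0.94 ± 0.20 in A18. The other subunit III-like gene, LOC107858989, fell in A101 (−2.49 ± 0.19), Hab (−2.07 ± 0.21) and A18 (−1.43 ± 0.21), and its difference in Biq (−0.84 ± 0.19) did not reach the minimum. Among the remaining photosystem I genes, subunit O LOC107875667 and subunit N LOC107851947 fell in all 4 accessions. The Biq difference of subunit O was −1.20 ± 0.33, and without library b at 60 DAA it was −0.573 and did not pass.

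Of the electron carriers, plastocyanin LOC107866833 fell in each accession, with −1.97 ± 0.26 for A101, −1.79 ± 0.29 for Hab, −1.58 ± 0.29 for A18 and −1.14 ± 0.26 for Biq, the last at −0.823 and no longer past the minimum without library b at 60 DAA. The 2 ferredoxin--NADP reductases went different ways. The leaf-type isozyme LOC107859876, which serves photosynthesis, fell in Biq (−1.25 ± 0.15), A101 (−1.08 ± 0.15) and Hab (−1.004 ± 0.17), and differed by −0.54 ± 0.17 in A18. The call in Hab was lost without Hab library a at 20 DAA (−0.864) or library b at 60 DAA (−0.996), and the call in A101 without A101 library a at 60 DAA (−0.981). The root-type isozyme LOC107859036, which supplies reduced ferredoxin in non-photosynthetic plastids, stood from −0.81 to −0.14 over all immature libraries and from 0.07 to 0.84 over all ripe ones. It rose in Biq (1.07 ± 0.10), and the differences of 0.89 ± 0.11 in Hab, 0.88 ± 0.10 in A101 and 0.96 ± 0.11 in A18 lay under the minimum. The cytochrome b6-f iron-sulfur subunit LOC107863280 passed in no accession, with differences of −0.97 ± 0.15 for Biq, −0.95 ± 0.15 for A101, −0.65 ± 0.16 for A18 and −0.28 ± 0.16 for Hab.

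In carbon fixation, Biq had the most falls and not the fewest: 7 of 8 genes fell there, while Hab and A101 had 5 and A18 had 4. In Biq, Hab, A101 and A18 the medians were −1.445, −1.574, −1.654 and −1.382. Rubisco small chain 8B LOC107858580 stood at 3.999 and 4.12 in A18, 3.81, 3.86 and 3.57 in A101, 2.10, 2.91 and 2.21 in Hab and 1.73, 0.97 and 1.21 in Biq at 20 DAA, and every library was between −3.13 and −2.18 at 60 DAA. Immature libraries were thus ordered by accession and ripe ones lay together, and the difference was −6.80 ± 0.21 for A18, −6.16 ± 0.19 for A101, −5.30 ± 0.21 for Hab and −4.38 ± 0.19 for Biq. The small chain genes LOC107860048 and LOC107860051 fell in every accession, with differences from −5.58 to −2.87, and both reached their lowest level in ripe Biq fruit. LOC107860048 stood at −4.16, −5.26 and −4.20 there, against −1.70 to −0.35 in the ripe libraries of the other accessions. Small chain 2A-like LOC107861339 had the second largest residual SD of all members, since Hab library c at 20 DAA was at 3.16 and the other Hab immature libraries were at 0.55 and 0.28. Its difference in Hab was −1.42 ± 0.50, which passed, and −0.503 without library c, which did not. The call in Hab was also lost without either Hab library at 60 DAA, and the call in Biq (−1.24 ± 0.45) without Biq library a at 20 DAA. Activase 2 LOC107843313 fell in all 4 accessions, between −2.16 ± 0.16 and −1.63 ± 0.16, while activase 1-like LOC107843465 passed in none. Of the assembly factors, PSB27-H1 LOC107855007, which takes part in photosystem II repair, fell in A18 (−2.48 ± 0.22), A101 (−2.29 ± 0.20) and Hab (−1.47 ± 0.22) and differed by −0.66 ± 0.20 in Biq. HCF136 LOC107857594, which is needed to assemble photosystem II, lay between −0.72 ± 0.13 and −0.37 ± 0.14 and passed nowhere. Besides HCF136, activase 1-like and the cytochrome b6-f subunit, the genes that passed in no accession were, named after their values were seen, photosystem I subunit VI-like LOC107861831 and the photosystem II 10 kDa polypeptide LOC107878908.

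The accessions differed most in immature fruit. At 20 DAA, limma's moderated F test over the 4 accessions passed for 63 of the 67 genes, against 15.9% of all genes, with a gap of at least 1 between the highest and the lowest accession. The mean of the red accessions was below that of the yellow ones for 54 genes that passed and above it for 1, where the shares over all genes were 3.37% and 1.69%. The median difference was −2.099 over the 67 genes and −0.00475 over all genes. Antenna genes were lower in red fruit in 24 of 26 cases (median −2.821), photosystem I genes in 13 of 13 (median −2.437), photosystem II genes in 5 of 8, oxygen-evolving genes in 5 of 6, electron carriers in 2 of 4, carbon fixation genes in 4 of 8 (median −1.078) and assembly factors in 1 of 2. For 57 of the 67 genes, every red library was below every yellow one, as it was for 7.51% of all genes.

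**Figure D2:**
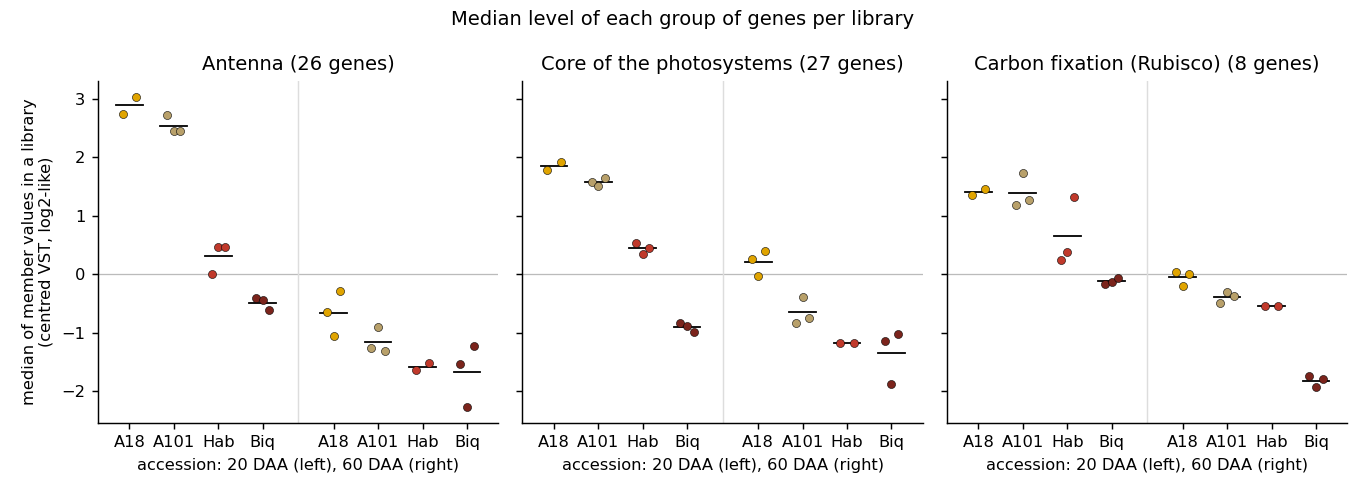
Median of the antenna, core and carbon fixation genes in each library (y axis, centred log2-like units), by accession and stage (x axis). Points are libraries and lines are group means. At 20 DAA the antenna medians stood between 2.4505 and 3.0415 in A101 and A18, between 0.0095 and 0.4735 in Hab and between −0.614 and −0.41 in Biq, while at 60 DAA the antenna medians of the groups lay closer together.

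Biq was the lowest accession in immature fruit for 62 of the 67 genes, and A18 was the highest for 52. Such ranks were not counted over all genes. For 47 genes the libraries were fully ordered, with every A101 and A18 library above every Hab library and every Hab library above every Biq library. Over all genes, 1.53% showed that order. It held for all 13 photosystem I genes, 17 of 26 antenna genes, 6 of 8 photosystem II genes, 5 of 6 oxygen-evolving genes and 3 of 8 carbon fixation genes. Leaving out single libraries gave 47 to 53 genes. This cannot test the order, since dropping a library can only keep or add ordered genes. At 60 DAA that order held for 7 genes, against 2.34% of all genes. Between the red accessions, Hab was above Biq for 36 genes and below it for 1, against 3.06% and 3.52% of all genes, and the median difference was 1.053. Photosystem I stood out in number, with 12 of 13 genes higher in Hab. Between the yellow accessions, no member passed at 20 DAA (0 of 67), where 1.59% of all genes were lower and 2.22% higher in A101. At a limma adjusted p under 0.05 and any size, 5 members passed, and the share of all genes by that rule was not computed. The widest gap was in oxygen-evolving enhancer protein 3-like LOC107856825, at −0.77 ± 0.21 for A101 minus A18.

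The gene that was higher in red fruit was CAB 3C-like LOC107839061. It stood at 4.27, 4.42 and 4.22 in Biq at 20 DAA and at 1.45, 1.67 and 1.89 at 60 DAA, and from −1.45 to −1.15 in the other accessions, where 7 libraries share its lowest value. The exception was Hab library b at 20 DAA, at 2.05, while the other Hab libraries were at −1.24 and −1.15. All Biq libraries were thus above all others of their stage, and the colour contrast (3.47 ± 0.39) averages Biq with Hab. Hab minus Biq was −4.42 ± 0.51 (limma adjusted p = 2.1e-06). The difference by stage in Hab, −1.33 ± 0.57, was −0.253 without library b and did not pass, nor did it without either Hab library at 60 DAA. The namesakes of this gene showed other patterns. CAB 3C LOC107868438 stood from −0.17 to −0.04 in all Hab and Biq libraries at 20 DAA and from 2.73 to 3.06 in A101 and A18. At 60 DAA it dropped to −5.32 and −5.39 in Hab, against −1.47, −3.63 and −1.10 in Biq, −0.88, 0.29 and −0.42 in A101 and 1.71, 0.79 and 1.97 in A18. Its stage difference in A18 (−1.41 ± 0.49) did not pass without A18 library b of either stage. CAB 3C LOC107868436, chosen after its values were seen, stood at 3.05, 2.67 and 2.48 in immature Hab fruit, within the range of 2.53 to 3.33 of the yellow accessions or next to it, and at −0.40, −0.39 and −0.37 in Biq. The 3 copies therefore set the accessions in different orders, and how far reads were shared between them was not tested.

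**Figure D3:**
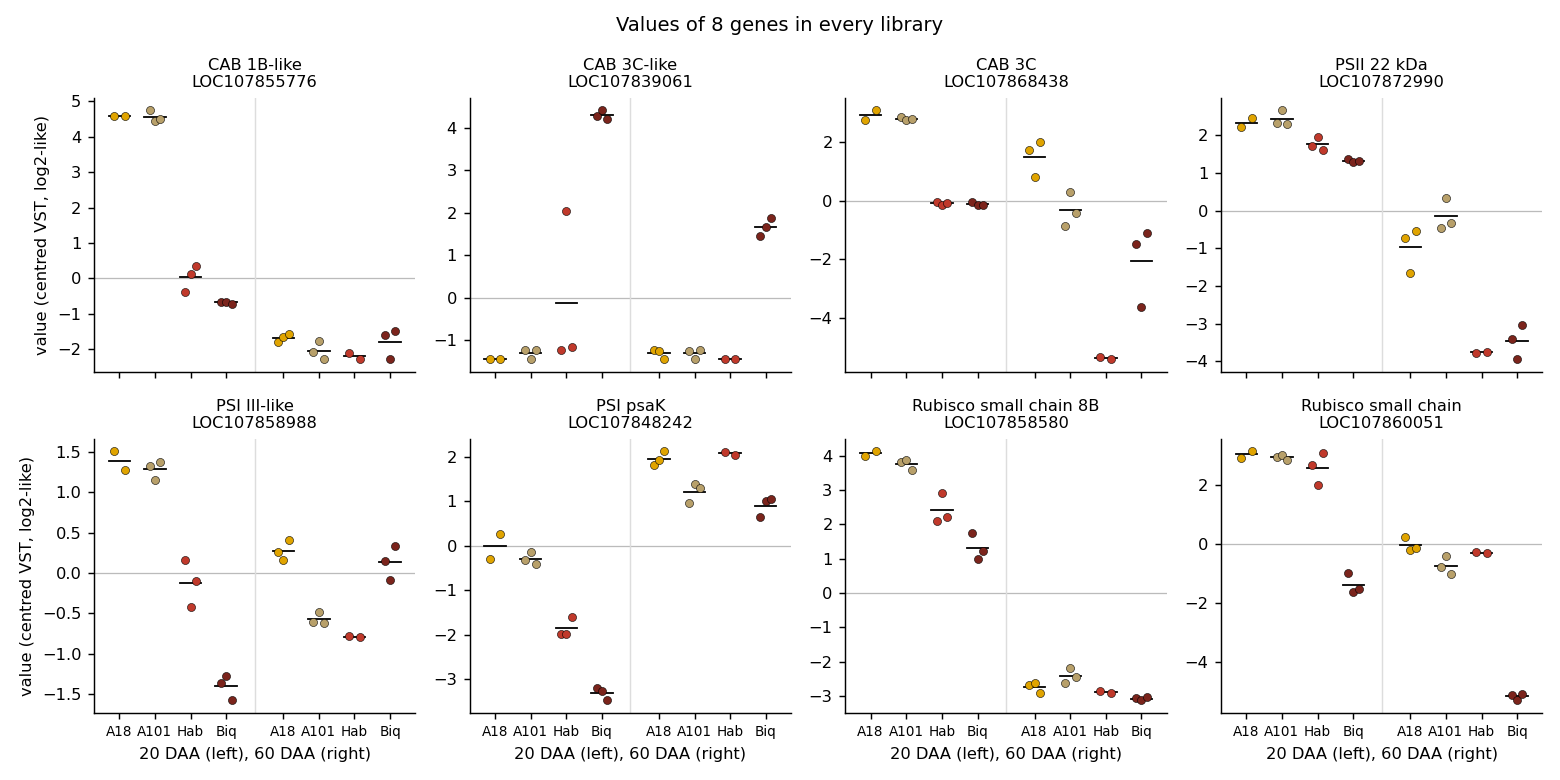
Values of 8 genes in every library (y axis, centred log2-like units, a separate scale in each panel) by accession and stage (x axis). Points are libraries and lines are group means. In immature fruit CAB 1B-like was high in A101 and A18 and CAB 3C-like was high in Biq, PsaK rose in every accession, and the Rubisco small chain LOC107860051 was lowest in Biq at both stages.

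The Rubisco small chain LOC107860051 also set Biq apart. At 20 DAA it stood at −0.99, −1.65 and −1.52 in Biq, and at 2.66, 2.00 and 3.09 in Hab, 2.96, 3.02 and 2.85 in A101 and 2.92 and 3.13 in A18. At 60 DAA it stood at −5.11, −5.30 and −5.11 in Biq and from −1.02 to 0.24 in the other accessions. Hab and the yellow accessions overlapped at both stages, while Biq lay below all of them. Hab exceeded Biq by 3.97 ± 0.22 at 20 DAA and 4.88 ± 0.24 at 60 DAA (limma adjusted p = 4e-11 and 1e-11). The stage difference lay between −3.79 ± 0.22 and −2.88 ± 0.24 over the accessions. Small chain LOC107860048 showed a smaller gap between Hab and Biq in immature fruit (1.05 ± 0.26) than in ripe fruit (3.77 ± 0.29), a difference of gaps that was not tested.

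In ripe fruit the median over genes of red minus yellow was smaller in size than in immature fruit for antenna and core. For carbon fixation it was not. The carbon fixation difference between library medians, another measure, was −1.142 at 20 DAA and −0.96 at 60 DAA. At 60 DAA the red mean was lower for 24 genes that passed and higher for 1, where the shares over all genes were 4.53% and 4.04%, and the median difference was −0.7705. Without Biq library b, 22 genes passed in either direction, against 25. By part, 6 of 26 antenna genes were lower in red fruit (median −0.4715), 12 of 27 core genes (median −0.8892), 4 of 8 carbon fixation genes (median −1.084) and 2 of 4 electron carriers. The carbon fixation library median averaged −1.8168 in ripe Biq, against −0.5355 in Hab, −0.382 in A101 and −0.0498 in A18. For the small chain genes LOC107860048 and LOC107860051, ripe Hab libraries lay within the yellow range, so Biq alone lowered the red mean. Largest in size of the 67 was CAB 3C LOC107868438 at −4.29 ± 0.33, followed by PsbS LOC107872990 at −3.05 ± 0.19, the small chain LOC107860051 at −2.35 ± 0.16 and subunit N LOC107851947 at −2.05 ± 0.25. CAB 7 LOC107838850, an antenna protein of photosystem I in tomato, was as far apart in ripe as in immature fruit (−1.95 ± 0.24 at both stages). The moderated F test passed for 50 of the 67 genes, against 30.2% of all genes.

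**Figure D4:**
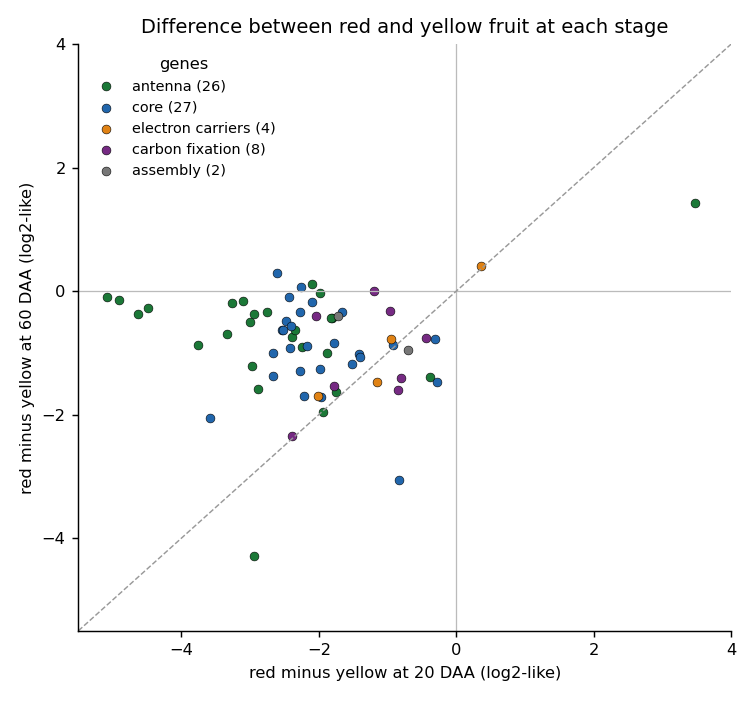
Difference between the means of red and yellow accessions at 20 DAA (x axis) and at 60 DAA (y axis), in log2-like units. Each point is a gene, coloured by group, and the dashed line marks equal differences. Most antenna genes lie far to the left and near 0 on the y axis, with a median of −2.821 at 20 DAA and −0.4715 at 60 DAA.

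A18 had the highest level in ripe fruit for 47 of the 67 genes, and Hab (32) and Biq (30) shared the lowest place. These ranks, too, were not counted over all genes. Between the yellow accessions, A101 was below A18 for 18 genes and above it for none (0), where 2.51% and 2.92% of all genes passed. The genes were 8 of the antenna, 4 of photosystem I, 3 of photosystem II and 3 of the oxygen-evolving complex, and no carbon fixation gene was among them. This count was 9 without A18 library c at 60 DAA and 23 without A18 library b. The photosystem II 10 kDa polypeptide LOC107878908 showed the difference with the smallest limma adjusted p of the 18 (2.4e-08), at 1.59, 1.21 and 1.41 in A18 and −0.43, 0.04 and −0.46 in A101, a difference of −1.69 ± 0.14. Between the red accessions, Hab was above Biq for 14 genes and below it for 5, against 5.54% and 5.35% of all genes. All 5 that were lower in Hab were antenna genes. All 3 carbon fixation small chains apart from 8B, and activase 1 LOC107842877, were higher in Hab.

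Averaged over the accessions of a colour, the fall from immature to ripe fruit differed between red and yellow fruit for most genes. In the core and in carbon fixation, colour did not order the accessions. In the core the median difference over genes was larger in size in red Hab than in yellow A18, and smallest in Biq. In carbon fixation it was larger in size in red Hab and Biq than in yellow A18, and largest in yellow A101. The difference between the stage changes of red and yellow accessions passed for 43 of the 67 genes, and in 38 the red accessions had the more positive change, against 6.38% of all genes. In 5 it was more negative (4.63% of all genes). The median was 1.319 over the 67 genes. Antenna genes had 20 and 3 such calls, photosystem I genes 10 and 0, photosystem II genes 3 and 2, oxygen-evolving genes 2 and 0, and carbon fixation genes 2 and 0. These differences draw on the same immature-fruit values as the contrast at 20 DAA and are not separate evidence.

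**Figure D5:**
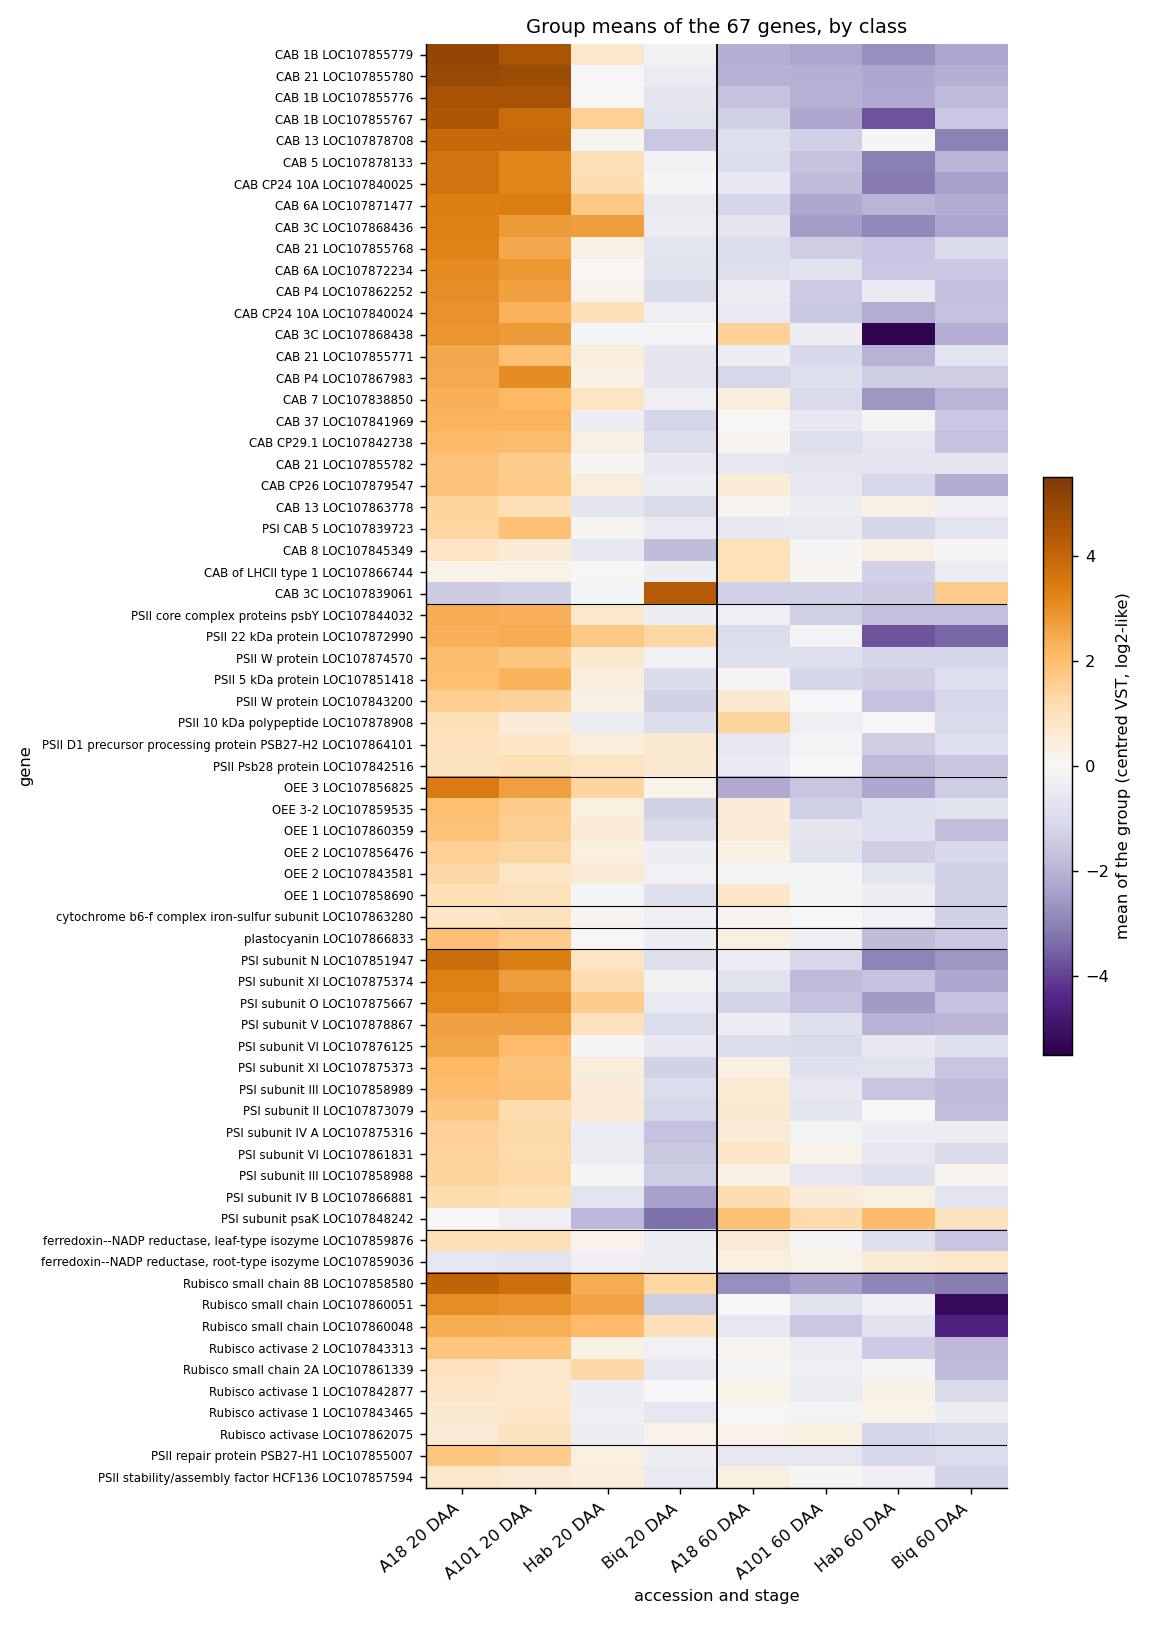
Mean of each accession and stage (columns) for the 67 genes (rows, ordered by class, CAB for chlorophyll a-b binding, PSI and PSII for the photosystems and OEE for oxygen-evolving enhancer). Colour gives the centred log2-like value, from purple (low) to orange (high), and levels are comparable along a row only. The left columns run from orange in A18 and A101 to purple in Biq for most rows. CAB 3C LOC107839061 (named CAB 3C-like in the text) runs against this order, and PsaK LOC107848242 is higher at 60 DAA in every accession.

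Fewer of the genes passed by pungency than by colour at each stage. At 20 DAA, 3 were higher and 1 was lower in the pungent accessions, where 1.35% and 1.47% of all genes passed. These were the small chain LOC107860051, CAB 3C LOC107868436, CAB 6A LOC107871477 and, lower, CAB 3C-like LOC107839061, and the pungent and non-pungent libraries overlapped for each of them. At 60 DAA, 3 were higher and 6 lower (1.77% and 1.84% of all genes), and all 6 that were lower were antenna genes. Without Biq library b at 60 DAA, 13 genes passed in either direction, against 9 with it.

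Other photosynthetic genes were taken from lists matched by name. Of 22 Calvin cycle genes beyond Rubisco, Hab had 8 that fell, A101 had 12 and Biq and A18 had 10 each. Among them, glyceraldehyde-3-phosphate dehydrogenase B LOC107851146, a reducing step of the cycle, fell in all 4 accessions, between −4.78 and −3.05. CP12-2-like LOC107856761, a small regulator that binds Calvin cycle enzymes, rose by 2.17 to 3.24 in all 4 accessions. Subunits of the chloroplast NDH complex, which runs cyclic electron flow, numbered 18, of which A101 and A18 each had 12 that fell, Hab had 10 and Biq had 6, and 2 or 3 rose in each. Of 5 chloroplast ATP synthase genes, Hab and A18 each had 2 that fell and A101 and Biq had 1. Over all genes, the shares that fell were 19.7% for A101, 20.6% for A18, 23.3% for Biq and 26% for Hab, and between 10.6% and 18.7% rose. In immature fruit, red accessions were lower than yellow ones for 9 of 22 Calvin cycle genes, 9 of 18 NDH genes and 1 of 5 ATP synthase genes, and higher for none (0) of these, with medians of −0.7707, −1.028 and −0.6548. The share of all genes was 3.37% lower and 1.69% higher.

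Genes listed as markers of tissues that could come with pericarp were read beside these results. The 18 placenta and capsaicinoid genes are named as 3-oxoacyl-[acyl-carrier-protein] synthases, branched-chain aminotransferases and vinorine synthase-like genes. Whether they are specific to placenta was not tested. Between 7 and 11 of the 18 fell with stage in each accession and 3 or 4 rose. In red fruit at 20 DAA 3 were higher and none (0) lower. Their median ranged over libraries at 20 DAA from 0.0445 to 0.467 in A101, A18 and Biq and from 0.5295 to 1.0135 in Hab. At 60 DAA it ranged from −0.8005 to −0.4045 over the libraries of all accessions. The 6 seed genes had a median between −0.6425 and −0.52 in every immature library and between −0.6335 and 2.0765 in ripe libraries, highest in A101, and 1 to 4 rose with stage in each accession. None (0) of the 6 differed by colour at either stage. Over all genes, between 19.7% and 26% fell with stage, between 10.6% and 18.7% rose, and 1.69% were higher in red fruit at 20 DAA. The part of these tissues in the results was not tested.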

How the data were processed

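Pericarp RNA of 22 libraries in 8 groups of accession and stage was analysed. Per the submitters' processing notes and the study, the authors used fastp 0.23.1 for trimming, Salmon 1.6.0 with the *C. annuum* Zunla-1 reference for quantification, and DESeq2 1.36.0 in R 4.2.0. The deposited values are the authors' variance-stabilized counts on a log2-like scale, centred per gene (largest absolute gene mean 0.00036), for 16922 genes that passed their filter on low counts. The table holds no counts, so depth and counting intervals are not given here. Column names give the accession and stage without a replicate number. The study describes a randomized block design, and the columns do not name the blocks. Each library therefore belongs to a group only, and a, b and c follow column order.

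A mean per group was fitted with limma 3.58.1 in R 4.3.3 (eBayes without trend, 14 residual and 4.51 prior degrees of freedom). P-values were adjusted by Benjamini-Hochberg over all 16922 genes, and a call needed an adjusted p under 0.05 and a difference of at least 1. P-values measure the spread between these libraries. The fit was tested on simulated data, with 66 or 67 of the 16922 genes changed at each size. In the stage comparison of Hab, differences of 3 were recovered in 100% of cases and differences of 1.5 in 98.5%. Differences of 0.5 were recovered in 1.5%, which cannot measure power because they lie under the minimum difference of 1. Alternatives were quantile normalization, median subtraction, array weights, a robust trended fit, no minimum difference, treat, single-stage or single-accession fits, removal of genes with 3 or more libraries at their lowest value, and omission of each library.

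The members and the 7 other lists were chosen with earlier results of these data known. Genes were named by rule: for each class the largest stage and colour differences, members that moved against their group, members with 3 or more libraries at the lowest value, the extremes of residual SD, and the largest differences within a colour. Named outside it, after their values were seen, were CAB of LHCII type 1, CAB 13, CAB 3C LOC107868436, CAB 6A, the activases, subunit VI-like, the 10 kDa polypeptide and genes of the other lists. The *C. chinense* table at hand matched 0 of the 67 IDs, so positions and sequences are not given here. Plots used matplotlib 3.10.9 under Python 3.11.15.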

Additional observations from a re-analysis of the deposited data

Results flagged for a closer look

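The change from 20 to 60 DAA differed between red and yellow accessions in a limma test of that difference for 43 members, in 38 with a more positive and in 5 with a more negative change in red fruit. What follows gives the difference of the stage changes (red minus yellow) for the genes that the naming rule covered. Among the antenna genes it was 4.97 for CAB 21-like LOC107855780, 4.76 for CAB 1B-like LOC107855776, 4.21 for CAB 1B-like LOC107855779, 2.89 for CAB 1B-like LOC107855767, 1.95 for CAB 21 LOC107855782, 1.39 for CAB 8 LOC107845349, −1.35 for CAB 3C LOC107868438 and −2.05 for CAB 3C-like LOC107839061. CAB 21 LOC107855782 has 11 libraries at its lowest value, 10 of them ripe, and CAB 1B-like LOC107855776 has 3, all of them ripe.

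In photosystem I it was 2.34 for PsaK LOC107848242, 1.92 for subunit III-like LOC107858988, 1.88 for subunit O LOC107875667, 1.84 for subunit IV A LOC107875316, 1.67 for subunit IV B LOC107866881 and 1.54 for subunit N LOC107851947. In photosystem II and its oxygen-evolving complex it was 2.33 for enhancer protein 3-like LOC107856825, 1.99 for the 5 kDa protein LOC107851418, 1.95 for enhancer protein 3-2 LOC107859535, 1.33 for subunit W-like LOC107874570, 1.32 for the repair protein PSB27-H1 LOC107855007, 1.29 for psbY LOC107844032 and −2.22 for PsbS LOC107872990. In carbon fixation it was 1.64 for Rubisco small chain 8B LOC107858580. The difference for CAB 3C LOC107868438 was −0.955 without Biq library b at 60 DAA and did not pass then.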

How the results depend on the processing

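No paired analysis was possible because the columns of the table carry no replicate number. For the genes named by rule, no call by stage, by colour or for the stage difference by colour changed sign. Other calls were not checked for sign. Part medians here are differences between group means of each library's median, not the medians over genes given above. Quantile normalization raised the median stage difference of all genes by 0.118 to 0.139, which made it positive (0.0337 for Hab, 0.0649 for A101, 0.0347 for Biq, 0.0805 for A18); the antenna stage median over accessions then was −2.233 (−2.582 with the deposited values), the core median −1.18 (−1.486) and the core difference by colour at 60 DAA −0.813 (−1.041). The uncalled LOC107861339 went from −0.309 to 0.148 in the stage difference by colour without Hab library c at 20 DAA. With no minimum difference, genes passing numbered 26 by pungency and 5 for A101 against A18 at 20 DAA, and at 60 DAA 51 by colour, 26 by pungency, 34 for Hab against Biq and 39 for A101 against A18. With treat against a difference of 1 they numbered 20 in the stage comparison of Biq and 20 for its difference by colour, 1 by pungency and 6 for Hab against Biq at 20 DAA, and 13 by colour, 2 by pungency, 5 for Hab against Biq and 1 for A101 against A18 at 60 DAA. Treat was not run for the F tests. Shares over all genes were not computed under either of these rules, so the counts cannot be set beside them.

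Leaving out each library, calls ranged over 44 to 48 (Hab), 51 to 55 (A101), 34 to 43 (Biq) and 48 to 52 (A18) by stage, 42 to 45 for its difference by colour, 55 to 57 and 22 to 31 by colour at 20 and 60 DAA, 3 to 6 and 7 to 13 by pungency, 30 to 39 and 14 to 22 for Hab against Biq, 0 to 0 and 9 to 23 for A101 against A18, and 62 to 63 and 47 to 51 for the F tests. Stage differences of the library medians ranged over −2.639 to −2.508 (antenna), −1.527 to −1.419 (core) and −1.583 to −1.449 (carbon fixation), colour differences at 20 DAA over −2.877 to −2.724, −1.974 to −1.901 and −1.308 to −1.041, and at 60 DAA over −0.832 to −0.57, −1.122 to −0.908 and −0.995 to −0.932. The counts of genes lower in all accessions and of ordered genes were examined under alternatives chosen after seeing the data. A group of 2 left with 1 library is assumed to vary like the others.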

Other observations

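Genes of chlorophyll synthesis, which supplies the antenna, took a mixed course. Of 27 genes, A101 had 13 that fell and 3 that rose, Hab 12 and 4, Biq 10 and 5, and A18 9 and 3. Over all genes, between 19.7% and 26% fell in an accession and between 10.6% and 18.7% rose. Protochlorophyllide reductase-like LOC107845435, the light-dependent step, fell in A101 (−5.49), A18 (−5.17), Hab (−4.17) and Biq (−1.36), and red minus yellow in immature fruit was −2.88. The subunit H gene of magnesium chelatase, LOC107870073, fell in the 4 accessions, between −2.44 and −1.89, as did geranylgeranyl diphosphate reductase LOC107862250, which makes the phytol tail, between −4.09 and −3.35. Chlorophyll synthase LOC107842693 rose by 1.01 to 1.71 in all 4. In immature fruit 7 of the 27 were lower in red than in yellow accessions and none (0) higher, with a median of −0.4622, where 3.37% and 1.69% of all genes passed.

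Regulators of chloroplast development were few. Of the 4 found, 3 fell in Hab and 2 in each other accession, where between 19.7% and 26% of all genes fell. The GLK1-like activator LOC107845460, of a family that turns on photosynthetic genes in tomato and *Arabidopsis*, fell in all 4, with −4.09 for Hab, −3.37 for A18, −3.28 for Biq and −3.15 for A101. APRR2 LOC107869180, linked to green fruit colour in pepper and tomato, fell with −6.11 for Biq, −5.77 for Hab, −4.15 for A101 and −3.63 for A18. In immature fruit none (0) of the 4 passed by colour: red minus yellow was −0.76 for GLK1-like LOC107845460 and −0.52 for APRR2 LOC107869180. Over all genes, 3.37% were lower and 1.69% higher in red fruit, so 0 of 4 does not set these genes apart.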
